A study of Mus musculus with 4 samples.

Results

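Adventitial fibroblasts are the connective tissue cells of the cuffs around airways and blood vessels of the lung. *Pi16*, *Scara5*, *Cd248*, *Islr*, *Cygb*, *Dpep1*, *Clec3b*, *Dpt*, *Cpxm1* and *Alpl*, which are genes of these cells, were followed across RNA-Seq libraries of sorted lung type 2 innate lymphoid cells (ILC2s). They are 10 of the 49315 genes in the count table and were found by gene name. They were selected on measured values, since several of them had the largest ratios of BLEO-HPS1 to BLEO-WT, so their values in that comparison are a description. Adventitial fibroblasts make matrix proteins such as collagens and lie next to the ILC2s of the lung, which they supply with the alarmin IL-33. PI16 marks a fibroblast state found around vessels in many organs, and after lung injury fibroblasts are the main source of new matrix.

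ILC2s of mouse lung, gated as Lineage- cells positive for Thy1.2, ICOS and T1/ST2, were cultured with IL-2 and sequenced by SMARTER mRNA-Seq, in which cDNA made from little RNA is amplified. The groups were WT (C57BL/6) mice given PBS (PBS-WT), *Hps1*-/- mice given PBS (PBS-HPS1), WT mice given bleomycin, which injures the lung (BLEO-WT), and *Hps1*-/- mice given bleomycin (BLEO-HPS1). *Hps1*-/- mice, a model of Hermansky-Pudlak syndrome, were congenic on C57BL/6. Bleomycin was given to mice of both genotypes into the peritoneum, with an age stated, or into the trachea, and ILC2s were sorted for other assays after the former. Which route and age hold for the sequenced mice, and how many were pooled, is not given in the sources used here. Each group had 1 library, made from 22405, 38873, 84166 and 128647 cells in the order above, so no difference has a replicate check and no p-value is given. Total counts were 72513619, 77703133, 87638154 and 77428740. Levels are reads per 1e+06 reads (CPM) after TMM scaling of library sizes, and ratios are differences of log2 CPM. Below, the PBS genotype ratio is PBS-HPS1 to PBS-WT, the bleomycin genotype ratio BLEO-HPS1 to BLEO-WT, the WT injury ratio BLEO-WT to PBS-WT and the *Hps1*-/- injury ratio BLEO-HPS1 to PBS-HPS1. Intervals are exact 95% intervals on the reads and cover counting error only. A gene was compared where any library had it at 1 CPM or more, which held for 14840 genes and for 10 of the 10 adventitial genes. *Hps1* itself was at 38.3 CPM in PBS-WT, 16.6 in PBS-HPS1 and 48.4 in BLEO-WT, against 21.3 in BLEO-HPS1. It was lower in both *Hps1*-/- libraries than in both WT libraries.

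Genes that mark cells which the sort should leave out were also read in these libraries. *Gata3*, the transcription factor that defines ILC2s, was at 38.4, 39.1, 25.1 and 26.9 CPM in PBS-WT, PBS-HPS1, BLEO-WT, BLEO-HPS1. Per kilobase of its longest transcript this is 11.9, 12.2, 7.80 and 8.37 CPM, while the macrophage gene *Csf1r*, the receptor for CSF1, stood at 137, 80.7, 286 and 341 CPM per kilobase. Of the 13 ILC2 genes listed, 12 were counted and *Bcl11b* was not analysed here. *Thy1*, a marker of the sort that is also a surface gene of fibroblasts, was at 306, 206, 224 and 551 CPM, highest in BLEO-HPS1. Per kilobase it was at 177, 119, 129 and 317 CPM, above *Csf1r* in the PBS libraries and below it in the bleomycin libraries, while *Gata3* was below *Csf1r* in all 4. The other markers of the sort were lowest in BLEO-HPS1, *Icos* at 79.9, 77.5, 51.4 and 32.1 CPM and *Il1rl1*, which encodes T1/ST2, at 40.9, 39.9, 37.3 and 23.8 CPM. The correction for GC content and length described below left the log2 bleomycin genotype ratio of *Icos* below 0 (-0.68 without it and -0.20 with it) and turned that of *Il1rl1* from -0.65 to 0.03 and its *Hps1*-/- injury ratio from -0.75 to 0.46. For *Thy1* these ratios went from 1.30 to 0.72 and from 1.42 to 0.51 with the correction. All levels are of bulk RNA, in which fewer cells of a type and less RNA per cell cannot be told apart.

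For the 10 adventitial genes together, the summed level was 87.3 CPM in PBS-WT, 113 in PBS-HPS1 and 138 in BLEO-WT, against 702 in BLEO-HPS1. BLEO-HPS1 was the highest library for 10 of the 10 genes, and PBS-WT was the lowest for 9. Shares of all compared genes with these libraries highest or lowest are not given, and the choice of the genes favoured a high BLEO-HPS1. *Pi16* made up 60.5% of the sum in PBS-WT, 35.8% in PBS-HPS1 and 35.4% in BLEO-WT, against 27.4% in BLEO-HPS1, so the sum leaned on this gene most where the others were low. Without *Pi16* the sums were 34.5, 72.7, 88.9 and 509 CPM. The fewest reads of any of the 10 genes in any library were 58. The order of the libraries by this sum, with PBS-WT lowest, then PBS-HPS1, then BLEO-WT, is also their order by number of cells sequenced, and the part of cell number in the levels was not tested. Scaled by total counts, without TMM factors, the sums were 93.8, 144, 123 and 573, so that PBS-HPS1 lay above BLEO-WT and the order was no longer that of cell number.

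**Figure D1:**
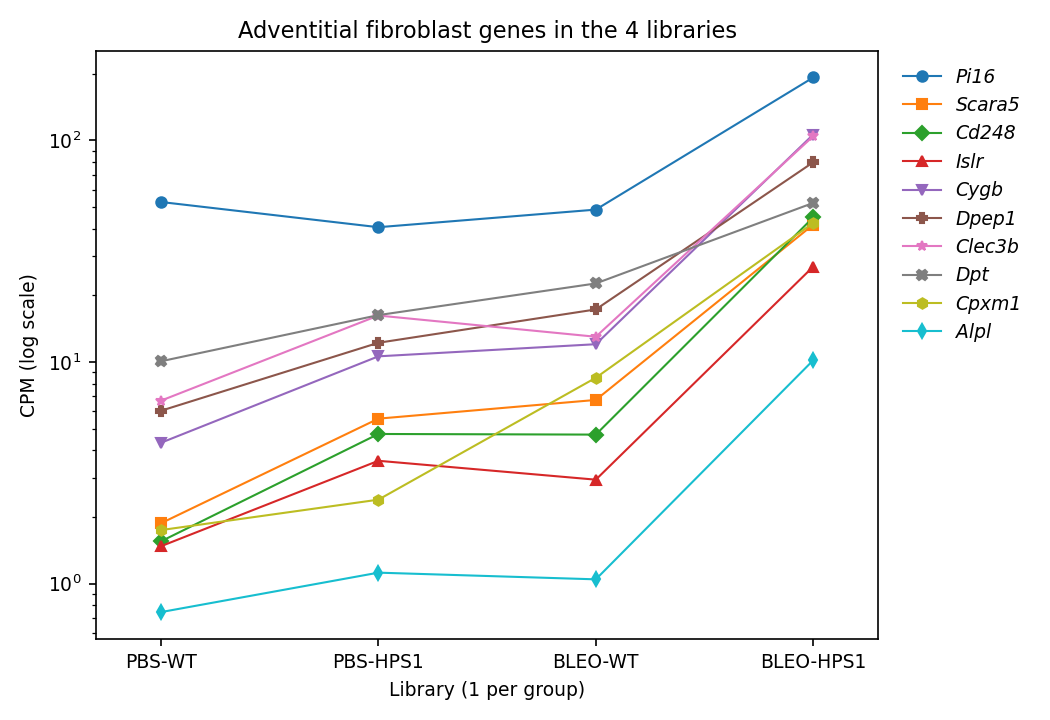
CPM of each of the 10 adventitial fibroblast genes (log axis) in the 4 libraries, 1 point per gene and library, with lines joining the points of a gene. Each line ends highest in BLEO-HPS1, and the *Pi16* line runs between 40.6 and 52.8 CPM in the other libraries.

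Receptors and glycoproteins of the cell surface come first. *Scara5* (ENSMUSG00000022032, chromosome 14 of GRCm38 from 65666403 to 65764826, plus strand) encodes a scavenger receptor that binds ferritin, and its level was 1.87 CPM in PBS-WT, 5.55 in PBS-HPS1 and 6.75 in BLEO-WT, against 41.7 in BLEO-HPS1. The PBS-HPS1 and BLEO-WT libraries lay close together between a low PBS-WT and a high BLEO-HPS1. *Cd248* (ENSMUSG00000056481, chromosome 19 from 5068078 to 5070682, plus strand) encodes endosialin, a transmembrane glycoprotein of stromal cells, and was at 1.55, 4.74, 4.71 and 45.0 CPM in the same order. The middle libraries could not be separated for this gene, since the log2 ratio of BLEO-WT to PBS-HPS1 was -0.01 with an interval of -0.21 to 0.19. *Islr* (ENSMUSG00000037206, chromosome 9 from 58156268 to 58204306, minus strand) encodes meflin, a membrane-anchored protein of mesenchymal stromal cells. Its level was 1.48, 3.59, 2.95 and 27.0 CPM, with PBS-HPS1 above BLEO-WT (log2 ratio of BLEO-WT to PBS-HPS1 -0.28, interval -0.53 to -0.04). The annotation of *Islr* overlaps *Islr2* on the same strand over 8010 bases, and *Islr2* had 62, 35, 53 and 218 reads against 115, 355, 231 and 1704 for *Islr*, so where the counting was shared the genes cannot be told apart.

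Among the enzymes, *Dpep1* (ENSMUSG00000019278, chromosome 8 from 123186242 to 123201812, plus strand) encodes a membrane dipeptidase that cleaves leukotriene D4 and products of glutathione. Its level was 6.03 CPM in PBS-WT, 12.2 in PBS-HPS1 and 17.3 in BLEO-WT, against 79.8 in BLEO-HPS1, a rise at each step of that order. *Alpl* (ENSMUSG00000028766, chromosome 4 from 137741733 to 137796384, minus strand) encodes the tissue-nonspecific alkaline phosphatase, which alveolar type 2 cells express as well. It was at 0.744, 1.12, 1.05 and 10.2 CPM, from 58, 111, 82 and 644 reads, and per kilobase of transcript (0.295, 0.444, 0.415 and 4.04 CPM) it was the lowest of the 10 genes in each library. BLEO-HPS1 was far above the rest for *Alpl*. Among the others, the intervals of BLEO-WT to PBS-HPS1 (-0.53 to 0.32) and BLEO-WT to PBS-WT (-0.01 to 1.0) held 0, and that of PBS-HPS1 to PBS-WT (0.12 to 1.08) did not. *Cygb* (ENSMUSG00000020810, chromosome 11 from 116645595 to 116654313, minus strand) encodes cytoglobin, an intracellular globin that binds oxygen and scavenges nitric oxide, and was at 4.32, 10.6, 12 and 106 CPM. BLEO-HPS1 stood far above the rest for *Cygb*, while the middle libraries differed by a log2 ratio of 0.18 (0.05 to 0.31). *Prcd*, which overlaps *Cygb* on the opposite strand over 780 bases, had 10, 21, 8 and 28 reads.

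Secreted proteins of the matrix and of the pericellular space showed less alike profiles. *Pi16* (ENSMUSG00000024011, chromosome 17 from 29317680 to 29330593, plus strand) encodes a peptidase inhibitor of the cysteine-rich secretory protein family and was at 52.8 CPM in PBS-WT, 40.6 in PBS-HPS1 and 48.8 in BLEO-WT, against 192 in BLEO-HPS1. PBS-WT was the second highest library for this gene, not the lowest. *Clec3b* (ENSMUSG00000025784, chromosome 9 from 123150946 to 123157432, plus strand) encodes tetranectin, which binds plasminogen, and was at 6.70, 16.2, 13.0 and 105 CPM. Here PBS-HPS1 was above BLEO-WT (log2 ratio of BLEO-WT to PBS-HPS1 -0.32, interval -0.43 to -0.20). Per kilobase, *Clec3b* with its short transcript was at 6.75, 16.4, 13.1 and 105 CPM and *Pi16* at 13.2, 10.2, 12.2 and 48.2 CPM. On this scale *Pi16* was above *Clec3b* in PBS-WT, and *Clec3b* was above *Pi16* in the other libraries.

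*Dpt* (ENSMUSG00000026574, chromosome 1 from 164796644 to 164824266, plus strand) encodes dermatopontin, which binds decorin and collagen fibrils, and was at 10.1, 16.3, 22.6 and 52.3 CPM. Apart from *Pi16*, it had the smallest fold between its highest and lowest libraries of the 10 genes. *Cpxm1* (ENSMUSG00000027408, chromosome 2 from 130390775 to 130397574, minus strand) encodes a secreted carboxypeptidase-like protein that binds collagen, and was at 1.74, 2.39, 8.49 and 42.4 CPM. Both bleomycin libraries were above both PBS libraries for *Cpxm1*, and the log2 ratio of BLEO-WT to PBS-HPS1 was 1.82 (1.61 to 2.05). Over the 10 genes, the interval of that ratio was above 0 for 6, below 0 for 2 and held 0 for 2. A rise at each step from PBS-WT over PBS-HPS1 and BLEO-WT to BLEO-HPS1 was seen for 5 of the 10. Shares of all compared genes are not given for these counts, which describe the 10 genes only. The order of PBS-HPS1 and BLEO-WT rests on the scaling, and it was not recomputed with the correction for GC content and length. With total counts the interval was above 0 for 1 gene (*Cpxm1*), below 0 for 7 and held 0 for 2, and *Cpxm1* alone rose at each step, while BLEO-HPS1 stayed the highest library for 10 genes and PBS-WT the lowest for 9.

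The genotypes without injury were compared first, since PBS-HPS1 and PBS-WT share no library with the comparison that chose the genes. Of the 10 genes, 6 were at least 2-fold higher in PBS-HPS1 and 0 at least 2-fold lower, while 2.16% of all compared genes were that much higher and 3.11% that much lower. The 6 were *Cd248* at a log2 ratio of 1.59 (1.32 to 1.91), *Scara5* at 1.56 (1.30 to 1.84), *Cygb* at 1.29 (1.12 to 1.48), *Clec3b* at 1.27 (1.13 to 1.42), *Islr* at 1.27 (0.97 to 1.60) and *Dpep1* at 1.02 (0.86 to 1.18), and for the last pair the interval reached below 1. *Dpt*, *Alpl* and *Cpxm1* were at 0.69, 0.58 (0.12 to 1.08) and 0.45 (0.15 to 0.77), and *Pi16* was lower in PBS-HPS1, at a log2 ratio of -0.38 (-0.44 to -0.31). The median of the 10 was 1.14 against -0.19 over all compared genes. None of the 10 was past 4-fold, where 0.276% of all compared genes were higher. In the same pair of libraries 8 of 8 neutrophil genes were at least 2-fold lower in PBS-HPS1, with a median of -2.59.

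With bleomycin in WT mice 6 of 10 genes were past 2-fold (5 with total counts, where *Dpt* was at a log2 ratio of 0.90), beside 5.28% of all compared genes higher and 8.22% lower. *Cpxm1* led at a log2 ratio of 2.27 (2.02 to 2.56), the only one of the 10 past 4-fold (1.14% of all compared genes), followed by *Scara5* at 1.84, *Cd248* at 1.58, *Dpep1* at 1.52, *Cygb* at 1.47 and *Dpt* at 1.16. *Islr* at 0.99 (0.67 to 1.33) and *Clec3b* at 0.96 (0.80 to 1.11) lay just under 2-fold. *Pi16* was at -0.11 (-0.18 to -0.05), the 1 gene of the 10 lower in BLEO-WT than in PBS-WT. The median was 1.32, and 0.09 over all compared genes. Macrophage genes had a median of 1.02 in this comparison (6 of 11 past 2-fold). This comparison shares BLEO-WT with the one that chose the genes, where a low BLEO-WT value favours a gene.

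In *Hps1*-/- mice, 10 of the 10 genes were at least 2-fold higher with bleomycin than with PBS, and 26.2% of all compared genes were, with 19.6% lower. These shares are 3893 and 2913 genes, and with total counts 1360 genes were higher and 5175 lower. Past 4-fold there were 9 of the 10 against 4.37% of all. With total counts there were 8, since *Pi16* was then at a log2 ratio of 1.60, and with the correction for GC content and length 7, since *Pi16* was at 1.81 and *Clec3b* at 1.51. The log2 ratios ran from 1.68 (1.60 to 1.77) for *Dpt* over 2.24 for *Pi16* to 4.13 (3.96 to 4.35) for *Cpxm1*, with a median of 2.90 beside 0.25 over all compared genes. Macrophage genes had a median of 1.29 here (8 of 11 past 2-fold), B and plasma cell genes of 1.45 (6 of 9) and T cell genes of 1.08 (4 of 7), at 0.65, 0.81 and 0.43 with total counts. BLEO-HPS1 is part of this comparison and of the one that chose the genes, so a high value here was favoured by the choice. The *Hps1*-/- injury ratio exceeded the WT injury ratio for 10 of 10 genes, on the log2 scale by 0.52 for *Dpt*, 1.07 for *Scara5*, 2.36 for *Pi16* and 2.68 for *Alpl*, and by a median of 1.79 against 0.15 over all compared genes. With TMM scaling, most compared genes thus had a difference above 0 as well. With total counts the median difference over all compared genes was -0.25. That difference was at least 1 for 9 of the 10 (7 with total counts) and for 16.3% of all compared genes. It was not tested. For each gene it equals the bleomycin genotype ratio, which chose the genes, minus the PBS genotype ratio, so a large value was favoured by the choice. Its median was 2.04 for B and plasma cell genes (at least 1 for 6 of 9) and 1.44 for neutrophil genes (5 of 8). Genes of fibroblasts of any kind had a median of 1.30 (18 of 22) and T cell genes of 1.25 (5 of 7).

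By the bleomycin genotype ratio, which was used to choose the genes, 10 of 10 were at least 2-fold and 8 at least 4-fold higher, where 6.72% and 1.5% of all compared genes were, and 10.3% were at least 2-fold lower. Those past 4-fold were 6 with the correction, which put *Dpep1* at 1.77 and *Cpxm1* at 1.84, and 9 with DESeq2's size factors, which put *Pi16* at 2.04. On the log2 scale it was 3.25 for *Alpl* (2.95 to 3.63) and for *Cd248* (3.10 to 3.42), 3.18 for *Islr*, 3.14 for *Cygb*, 3.0 for *Clec3b* and 2.62 for *Scara5*. It was 2.32 for *Cpxm1*, 2.20 for *Dpep1*, 1.98 (1.93 to 2.03) for *Pi16* and 1.21 (1.12 to 1.29) for *Dpt*, the last pair under 4-fold. The median of 2.81, beside -0.04 over all compared genes, follows from the choice. B and plasma cell genes had a median of 1.80 in this comparison (7 of 9 past 2-fold) and T cell genes of 0.82 (2 of 7).

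**Figure D2:**
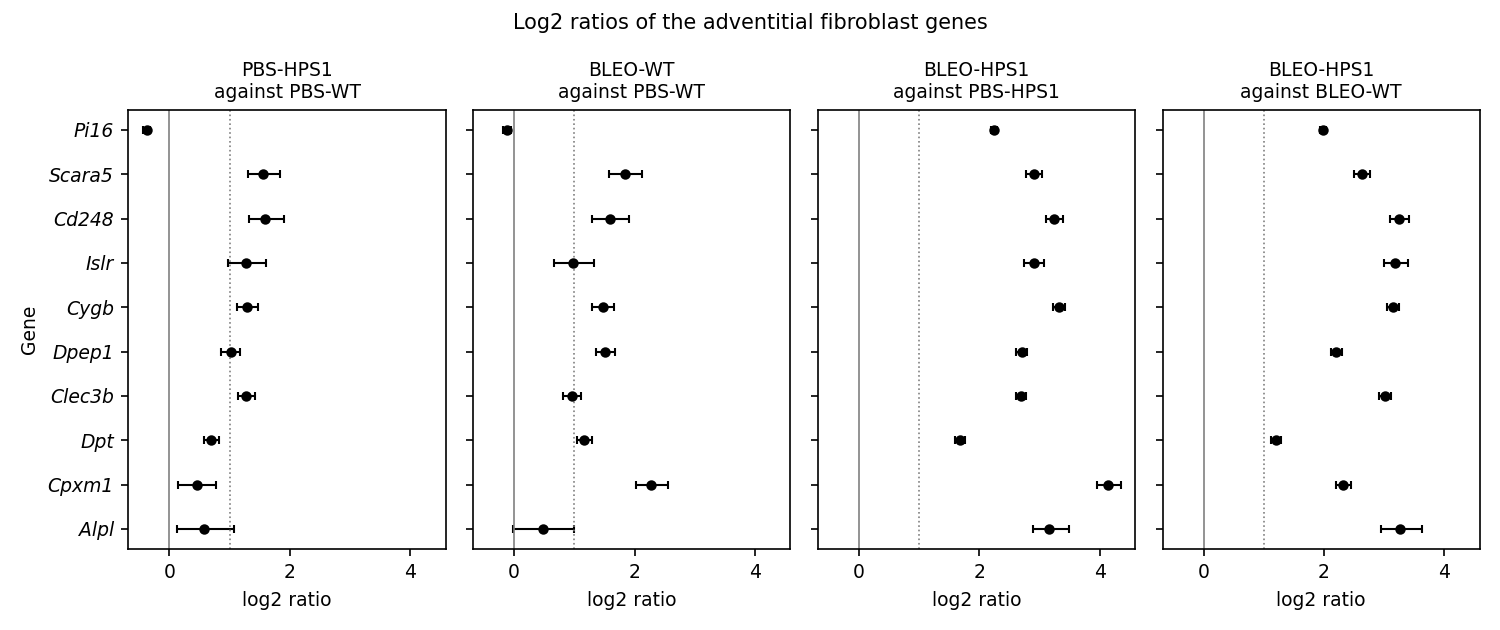
Log2 ratio of each of the 10 genes in the 4 comparisons, with points for the ratio, bars for the exact 95% interval on reads, a grey line at 0 and a dotted line at 1. *Pi16* lies below 0 in the comparisons that leave out BLEO-HPS1, at -0.38 and -0.11, and *Dpt* has the smallest ratio in both comparisons with it.

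Base composition moved with the ratios that hold a bleomycin library, and its part in them was not tested beyond the correction given here. Across 11133 genes, which are not independent replicates, Spearman's rho between the GC content of the longest transcript and the log2 ratio was 0.609 for the bleomycin genotype ratio, 0.602 for the *Hps1*-/- injury ratio, 0.485 for the WT injury ratio and -0.0726 for the PBS genotype ratio. The median GC content of the 10 genes was 56.0% against 49.8% over 14813 compared genes, from 48.7% for *Dpt* to 61.3% for *Cd248*, and their median length was 2348.5 bases against 3228. With GC content and length corrected by loess, the medians of the 10 genes were 2.39, 2.32, 1.20 and 1.20 in the order just given, and the median difference between the genotypes fell from 1.79 to 1.22. The count past 2-fold was 10, 10, 6 and 6 with the correction as without it, while the difference was at least 1 for 6 of the 10 genes with it and for 9 without it.

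Other fibroblast genes were read beside these 10. For this and each further list, the shares of all compared genes past 2-fold are those above, 2.16% higher and 3.11% lower by the PBS genotype ratio, 6.72% and 10.3% by the bleomycin genotype ratio, 5.28% and 8.22% by the WT injury ratio and 26.2% and 19.6% by the *Hps1*-/- injury ratio. They hold for TMM scaling, and their balance moved with total counts, as given under the processing below. A list of 23 further genes of adventitial fibroblasts, all compared, summed to 445, 456, 663 and 1142 CPM in PBS-WT, PBS-HPS1, BLEO-WT, BLEO-HPS1. *Ly6a* was the most abundant of them in PBS-WT and BLEO-HPS1, *Sema3c* in PBS-HPS1 and *Anxa3* in BLEO-WT. By the PBS genotype ratio, 6 of the 23 were at least 2-fold higher and 0 lower, with a median log2 value of 0.28, and *Ccl11*, which encodes the chemokine eotaxin, had the largest at 1.89. By the bleomycin genotype ratio, 14 of 23 were higher and 1 lower, with a median of 1.41, from *Entpd2*, an ectonucleotidase gene, at 3.11 to *Nt5e*, another, at -1.22. *Dpp4* and *Cd55*, surface genes often used beside *Pi16* to mark these cells, were lowest in BLEO-HPS1 by CPM, at 58.9, 43.3, 31.5 and 27.4 for *Dpp4* and at 24.1, 24.9, 11.9 and 10.5 for *Cd55*. So were *Sema3c*, a semaphorin gene, at 66.5, 78.4, 25.4 and 18.8 CPM, which had the lowest injury ratios of the list (-1.39 in WT and -2.06 in *Hps1*-/- mice), and *Nt5e* at 34.9, 42.3, 77.8 and 33.4 CPM. The correction for GC content and length turned the log2 bleomycin genotype ratios of *Dpp4*, *Cd55* and *Sema3c* from -0.20 to 0.54, from -0.18 to 0.26 and from -0.43 to 0.30, and the *Hps1*-/- injury ratio of *Dpp4* from -0.66 to 0.70. The injury ratios of *Sema3c* were -0.87 in WT and -0.72 in *Hps1*-/- mice with the correction. The medians with bleomycin were 0.65 in WT mice (9 higher, 2 lower) and 1.68 in *Hps1*-/- mice (17 higher, 2 lower). With total counts they were 0.38 and 1.04, and the median PBS genotype ratio of this list was 0.52.

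Genes that fibroblasts of any kind express, 23 in all with *Twist2* too low to be compared, summed to 508, 814, 1284 and 5443 CPM. *Sparc*, a matricellular protein gene, was the most abundant of them in PBS-WT, PBS-HPS1 and BLEO-WT, and *Col1a1*, a collagen I chain, in BLEO-HPS1 at 982 CPM. The 10 adventitial genes are not on this list, and the ratio of their sum to that of the list was 17.2%, 13.9%, 10.7% and 12.9%, and 6.79%, 8.94%, 6.92% and 9.36% without *Pi16*. The choice of the 10 genes favours a high ratio in BLEO-HPS1 and a low one in BLEO-WT. Of the 22 compared genes, 1 was at least 2-fold higher in PBS-HPS1 than in PBS-WT (*Dcn*, decorin, at 1.09) and 19 in BLEO-HPS1 than in BLEO-WT, with medians of 0.77 and 1.97. With bleomycin 12 were higher in WT and 20 in *Hps1*-/- mice, with medians of 1.26 and 2.53. The count of 1 by the PBS genotype ratio rests on the scaling. With total counts that ratio went from 0.98 to 1.22 for *Col1a1* and from 0.91 to 1.16 for *Pdgfra*. The median of the list went from 0.77 to 1.02. With TMM scaling *Pdgfra*, a receptor of fibroblasts, had the smallest ratio of BLEO-HPS1 to BLEO-WT at 0.65. With the correction for GC content and length *Pdgfra* was at 1.19 and *Twist1* lower, at 0.17.

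Alveolar fibroblast genes, 12 of 12 compared, summed to 207, 268, 233 and 440 CPM with *Inmt* the most abundant in each library. Their median log2 value was 0.58 by the PBS genotype ratio (0 of 12 past 2-fold) and 0.84 by the bleomycin genotype ratio (4 higher, 0 lower), and the injury ratios gave 0.15 in WT (1 higher, 0 lower) and 0.60 in *Hps1*-/- mice (4 higher, 1 lower, where 26.2% and 19.6% of all compared genes were). *Itga8*, an integrin chain of these cells, had a bleomycin genotype ratio of -0.47, which the correction for GC content and length turned to 0.22. With total counts the injury medians of this list were -0.11 and -0.04. Genes of fibrosis-associated fibroblasts, 9 of 11 compared, summed to 1466, 1104, 10650.0 and 6146 CPM. *Fn1*, fibronectin, which macrophages also make, accounted for most of that, at 1432, 1058, 10587 and 5995 CPM, and *Grem1* had 0 reads in PBS-WT. *Cthrc1*, a marker of collagen-rich fibroblasts in fibrosis, was at 0.718, 0.475, 0.536 and 1.49 CPM. The median log2 PBS genotype ratio of this list was 0.42 (2 higher, 0 lower), its bleomycin genotype ratio 1.19 (6 higher, 0 lower), its WT injury ratio 1.44 (5 higher, 1 lower) and its *Hps1*-/- injury ratio 2.13 (7 higher, 1 lower). Smooth muscle and pericyte genes, 13 of 14 compared, summed to 55.2, 68.1, 87.7 and 132 CPM, led by *Gucy1a1* in the PBS libraries, *Cspg4* in BLEO-WT and *Des* in BLEO-HPS1. Their medians in the same order of ratios were 0.38 (0 past 2-fold), 0.85 (6 higher, 0 lower), 0.39 (1 higher, 0 lower) and 1.02 (7 higher, 1 lower). With total counts they were 0.62, 0.71, 0.13 and 0.38, and with the correction 0.33, 0.51, 0.24 and 0.47.

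Markers of other cell types were in the libraries at the following levels, in the order PBS-WT, PBS-HPS1, BLEO-WT, BLEO-HPS1, and their part in the ratios of the adventitial genes was not tested. Macrophage genes (11 of 11 compared) summed to 11817, 7829, 19525 and 19308 CPM, led by the lysozyme gene *Lyz2* in each library, with a median log2 PBS genotype ratio of -0.63 (0 past 2-fold) and bleomycin genotype ratio of -0.09 (0 higher, 2 lower), and injury ratios of 1.02 in WT (6 higher, 0 lower) and 1.29 in *Hps1*-/- mice (8 higher, 1 lower). In the lists that follow, medians are given for these ratios in that order. Endothelial genes (12 of 12) summed to 1162, 1094, 1152 and 1526 CPM, led by *Pecam1* with PBS and *Vwf* with bleomycin, with medians of -0.08 and 0.29 (0 past 2-fold in either), -0.12 (1 higher, 1 lower) and 0.18 (3 higher, 0 lower). Epithelial genes (11 of 11) summed to 1423, 1060.2, 915 and 663 CPM, led by *Sftpc*, a surfactant gene, with medians of -0.30 (0 past 2-fold), -0.17 (0 higher, 2 lower), 0.08 (0 higher, 2 lower) and -0.51 (1 higher, 4 lower). With total counts the first of the endothelial medians was 0.17 and the last -0.46, and the third of the epithelial medians was -0.18. B and plasma cell genes (9 of 9) summed to 976, 564, 432 and 1613 CPM, led by *Ighm*, with medians of -0.04 (0 higher, 2 lower; 0.21 with total counts and 0.04 with the correction), 1.80 (7 higher, 0 lower), -0.24 (0 higher, 3 lower) and 1.45 (6 higher, 0 lower). T cell genes (7 of 7) summed to 715, 527, 628 and 1130 CPM, led by *Trbc2*, with medians of -0.40 (0 past 2-fold), 0.82 (2 higher, 0 lower), -0.13 (0 past 2-fold) and 1.08 (4 higher, 0 lower). Both lymphocyte lists were highest in BLEO-HPS1, as the adventitial genes were, but lower in PBS-HPS1 than in PBS-WT by summed CPM. Neutrophil genes (8 of 9 compared) summed to 1112, 237, 597 and 258 CPM, led by *S100a9*, with medians of -2.59 (0 higher, 8 lower), -0.89 (2 higher, 4 lower), -0.96 (0 higher, 4 lower) and 0.46 (2 higher, 1 lower; -0.16 with total counts and -0.07 with the correction). Mesothelial genes (7 of 10) summed to 283, 236, 87.1 and 101 CPM, led by *Krt19*, which epithelial cells also express, with medians of 0.04 and -0.03 (0 past 2-fold in either; the second was 0.03 with DESeq2's size factors), 0.06 (0 higher, 2 lower; -0.20 with total counts and -0.10 with the correction) and -0.33 (1 higher, 2 lower), and their defining gene *Wt1* had 24, 83, 47 and 16 reads. The 12 ILC2 genes had medians of -0.18 (0 past 2-fold), -0.41 (3 higher, 0 lower), -0.20 and -0.15, of which the first was 0.06 with total counts, and the second 0.06 and the last 0.41 with the correction for GC content and length. On all of these lists, *Grem1* in PBS-WT was the only gene at 0 reads in a library.

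**Figure D3:**
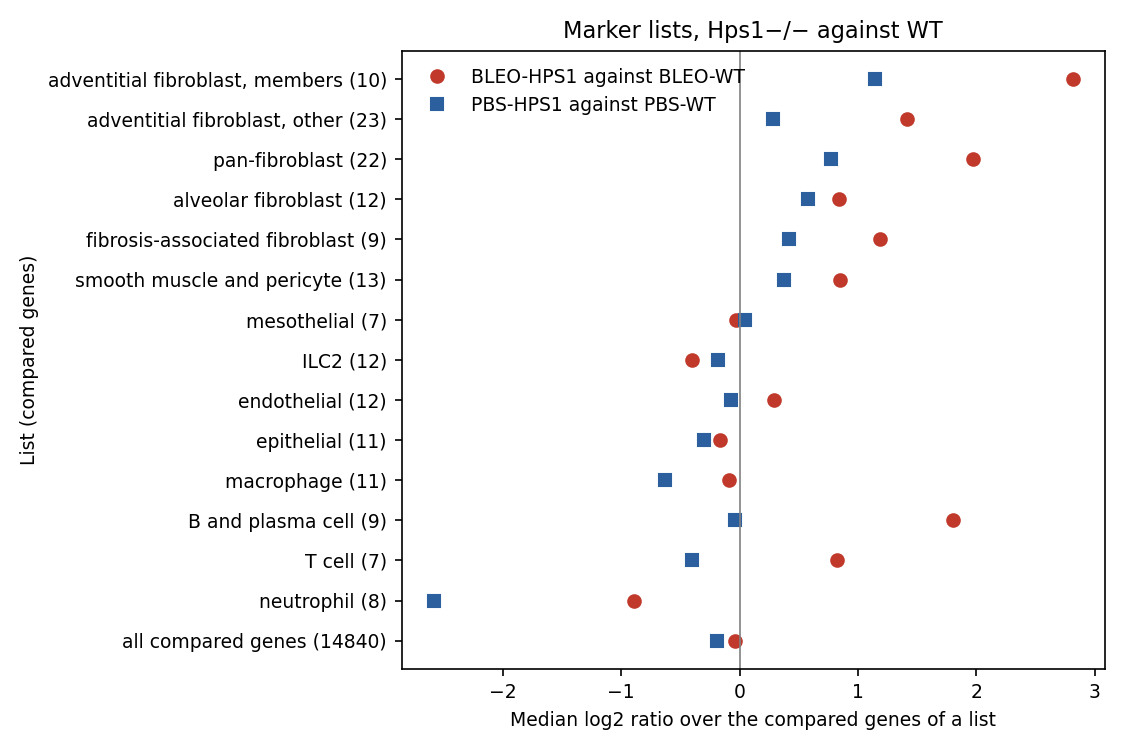
Median log2 ratio of *Hps1*-/- to WT over the compared genes of each marker list (number in brackets), with circles for the bleomycin libraries and squares for the PBS libraries. The 10 adventitial genes, chosen by the bleomycin libraries, lie at 2.81 and 1.14, and all 14840 compared genes at -0.04 and -0.19.

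The genes nearest to the median profile of the 10 were sought among 11588 others with a CPM of at least 5 in any library, by the root mean square distance of log2 CPM over the 4 libraries after each gene was centred on its own mean. The 10 nearest were *Mfap5* at 0.042, *Smoc2* at 0.084, *Entpd2* at 0.11, *Adgrd1* at 0.11, *Fbln1* at 0.12, *Clec11a* at 0.16, *Aebp1* at 0.18, *Loxl1* at 0.18, *Fbln2* at 0.20 and *Scara3* at 0.21. *Mfap5*, a microfibril protein gene, was at 2.00, 4.67, 4.85 and 36.7 CPM, and *Fbln1*, the fibulin 1 gene, at 7.61, 16.0, 14.4 and 135 CPM. Of these, *Mfap5* and *Entpd2* are on the list of further adventitial genes and *Loxl1* on that of fibroblasts of any kind. Distances of the 10 adventitial genes themselves from their median ran from 0.13 for *Islr* to 0.64 for *Cpxm1*, 0.70 for *Dpt* and 0.80 for *Pi16*.

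Promoter sequence was available from RefSeq (GRCm38.p6) for 6 of the 10 genes, *Pi16*, *Islr*, *Dpep1*, *Dpt*, *Cpxm1* and *Alpl*, the last with a pair of starts. The 250 bases before each start were searched on both strands for short motifs. These were the letters TATAAA of the TATA box, the letters GGGCGG of the GC box bound by SP1 proteins, the letters TGANTCA bound by AP-1 and the letters GGAATG bound by TEAD factors. E boxes, which basic helix-loop-helix factors bind, were searched as CAGCTG, which reads alike on both strands, and as the form CATCTG. The AP-1 letters were in 0 of the 6 genes and in 6.75% of 32851 promoters of the same length, TATAAA in 1 of 6 and 12.4%, GGAATG in 1 of 6 and 12.6%, GGGCGG in 2 of 6 and 32.7%, CATCTG in 2 of 6 and 14.4%, and CAGCTG in 3 of 6 (*Islr*, *Dpt* and *Alpl*) and 13%. *Scara5*, *Cd248*, *Cygb* and *Clec3b* are not among the promoters used. All 250 bases used for *Pi16* lay in exon sequence of *Pi16*, and those for *Dpt* held 19 bases of a *Dpt* exon. A match before either start of *Alpl* counted for the gene, while the shares of all promoters count each promoter by itself. To show the letters behind these counts, 1 promoter that lies in no exon is printed for each of 4 genes, 5′ to 3′ on the strand of the gene, with every match in capitals. That of *Islr* (chr9:58158555-58158804, minus strand, within the longer annotated *Islr* gene but in no exon) holds CAGCTG, and that of *Dpep1* (chr8:123185985-123186234, plus strand, within a longer gene model, *Gm20388*, in no exon) holds GGAATG on the opposite strand. That of *Cpxm1* (chr2:130397630-130397879, minus strand, in no annotated gene) holds GGGCGG on both strands and CATCTG on the opposite strand, and that of the upstream start of *Alpl* (chr4:137796385-137796634, minus strand, in no annotated gene) holds CAGCTG and overlapping copies of GGGCGG.
Islr: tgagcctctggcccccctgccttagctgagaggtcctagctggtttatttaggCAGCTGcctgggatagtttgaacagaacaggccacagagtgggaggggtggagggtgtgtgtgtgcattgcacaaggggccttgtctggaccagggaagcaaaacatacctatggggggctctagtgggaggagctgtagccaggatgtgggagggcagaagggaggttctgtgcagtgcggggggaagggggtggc
Dpep1: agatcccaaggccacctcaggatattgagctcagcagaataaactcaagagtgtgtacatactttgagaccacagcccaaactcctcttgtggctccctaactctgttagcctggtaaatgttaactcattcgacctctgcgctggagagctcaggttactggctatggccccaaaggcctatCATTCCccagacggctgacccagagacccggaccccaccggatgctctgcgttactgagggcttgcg
Cpxm1: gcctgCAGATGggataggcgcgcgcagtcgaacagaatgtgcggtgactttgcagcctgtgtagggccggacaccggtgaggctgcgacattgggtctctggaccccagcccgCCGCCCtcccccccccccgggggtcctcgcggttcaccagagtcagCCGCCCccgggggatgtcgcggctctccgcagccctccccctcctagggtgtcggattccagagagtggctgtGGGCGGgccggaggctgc
Alpl: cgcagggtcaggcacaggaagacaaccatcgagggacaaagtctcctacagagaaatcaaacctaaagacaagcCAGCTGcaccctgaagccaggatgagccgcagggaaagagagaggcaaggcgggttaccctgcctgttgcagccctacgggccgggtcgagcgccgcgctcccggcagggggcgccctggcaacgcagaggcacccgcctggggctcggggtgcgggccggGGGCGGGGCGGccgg
GC content was 59.6% for *Islr*, 53.6% for *Dpep1*, 70.8% for *Cpxm1* and 68.4% for *Alpl*, against a median of 52.4% over all promoters. A match is a run of letters and not a binding site.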

How the data were processed

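The authors deposited raw gene counts under Ensembl identifiers for 1 library in each of 4 groups. The aligner, counter, genome build and use of strand are not given in the sources used here, so reads of overlapping genes (*Islr* and *Islr2*, *Cygb* and *Prcd*, *Dpt* and *Gm32569*) may be mixed. *Dpep1* overlaps *Gm20388* on the same strand over 15571 bases, and *Gm20388* had 0 reads in each library. *Pi16* overlaps an antisense gene over 2569 bases. Of the 49315 identifiers, 49056 were in GENCODE M21 (GRCm38), the source of positions, lengths and GC content, and 174 (17526 reads) had no symbol. Libraries were scaled with TMM factors (1.08, 1.27, 0.895 and 0.816) in edgeR 4.0.16 under R 4.3.3, with a prior count of 2. With 1 library per group no test was run, and ratios carry exact Clopper-Pearson 95% intervals. The smallest level 3 reads can show was 0.0303 to 0.0475 CPM. Alternatives were total counts, DESeq2 1.42.0 size factors, TMM without fibroblast, smooth muscle and mesothelial genes, a prior count of 0.5 or 10, genes left unfiltered, 10 reads or more in every library, a log2 threshold of 2, a loess correction (span 0.3) and the 10 genes without *Scara5*, *Dpep1* and *Cpxm1*. The order of the libraries was recomputed under the scalings, as an addition made with the data in view. The list medians, the single genes and the counts past 2-fold and 4-fold were added likewise, under the scalings and the correction. TMM scaling, the log2 ratio, the loess correction and the intervals were tested on simulated data, for BLEO-HPS1 against BLEO-WT only. In these data equal numbers of genes were raised and lowered. The other steps and scalings were not tested in this way. The 10 genes and the 14 lists were chosen with earlier results of these data known. Genes named are the 10, the most abundant, extreme, absent or defining genes of a list, sort markers, *Hps1* and the 10 nearest profiles. *Dpp4*, *Cd55* and *Cthrc1* were singled out after their values were seen. Hydropathy of protein N termini was planned and not run. The summed level and the counts of ILC2 genes past 2-fold with injury are not reported here.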

Additional observations from a re-analysis of the deposited data

Results flagged for a closer look

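Opposite directions in the 2 genotypes, or with PBS and bleomycin, were found for the genes and lists that follow, and none of these differences was tested. *Pi16* had a log2 injury ratio of -0.11 in WT and 2.24 in *Hps1*-/- mice, a difference of 2.36, and a genotype ratio of -0.38 with PBS and 1.98 with bleomycin. The injury ratios of other genes were -0.46 and 1.42 for *Thy1* (difference 1.88), -1.22 and 1.65 for *Ighm* (2.87), -0.12 and 1.30 for *Trbc2* (1.42) and 1.16 and -0.34 for *Nt5e* (-1.5), the last at 0.02 in *Hps1*-/- mice under the loess correction. The genotype ratios of these genes were opposite as well. Under the loess correction the *Hps1*-/- injury ratios of *Thy1*, *Ighm* and *Trbc2* were 0.51, 0.94 and 0.26, with differences of 1.18, 2.29 and 0.50. For *Cthrc1* (-0.41 and 1.60, difference 2.0) and *Islr2* (-0.23 and 3.20, difference 3.43), the WT injury ratio rests on 56 and 42 and on 62 and 53 reads in PBS-WT and BLEO-WT, and its interval holds 0 (-1.04 to 0.18 and -0.79 to 0.32). Their genotype ratios with PBS and bleomycin were -0.57 (-1.19 to -0.01) and 1.43 for *Cthrc1* and -1.12 and 2.31 for *Islr2*.

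By genotype alone, the ratios with PBS and bleomycin were -0.46 and 1.26 for *Ly6a* (difference 1.72), -0.76 and 0.25 for *Csf1r* (1.0), 0.76 and -0.47 for *Itga8* (-1.22), 0.24 and -0.43 for *Sema3c* (-0.67), 0.38 and -0.24 for *Gucy1a1* (-0.62), -0.30 and 0.15 for *Krt19* (0.45) and -0.16 and 0.32 for *Vwf* (0.48). For *Itga8*, *Sema3c*, *Gucy1a1* and *Krt19* the correction left no opposite directions, and for *Vwf* total counts left none. *Cd55* was at 0.05 and -0.18 (-0.23), but the interval of the first holds 0 (-0.04 to 0.14) and the correction left no opposite directions. *Pecam1* had genotype ratios of -0.08 and 0.20 and injury ratios of -0.05 and 0.24 (0.28), and with total counts neither pair was opposite.

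Among the lists, the median genotype ratios were -0.04 with PBS and 1.80 with bleomycin for B and plasma cell genes (median difference 2.04), -0.40 and 0.82 for T cell genes (1.25), -0.08 and 0.29 for endothelial genes (0.51) and 0.04 and -0.03 for mesothelial genes (0.14). With total counts the PBS medians of B and plasma cell and of endothelial genes were above 0, at 0.21 and 0.17, and that of B and plasma cell genes was 0.04 with the correction. For mesothelial genes the bleomycin median was 0.03 with DESeq2's size factors, and the median difference was -0.24 with total counts and -0.09 with the correction. The median injury ratios were -0.96 in WT and 0.46 in *Hps1*-/- mice for neutrophil genes (1.44), of which the second was -0.16 with total counts and -0.07 with the correction, and 0.08 and -0.51 for epithelial genes (-0.19), of which the first was -0.18 with total counts. The injury medians were also opposite for B and plasma cell genes (-0.24 and 1.45), T cell genes (-0.13 and 1.08), endothelial genes (-0.12 and 0.18, the second -0.46 with total counts) and mesothelial genes (0.06 and -0.33, the first -0.20 with total counts).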

How the results depend on the processing

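The sign of each of the 40 genotype and injury ratios of the 10 genes was kept under the 8 other settings of scaling, prior count, filter and correction. The filter settings leave the ratio of a single gene as it is, so its sign could not change under them. The order of PBS-HPS1 and BLEO-WT, which is not among these ratios, was not kept with total counts. Total counts moved the median of all compared genes from -0.04 to -0.18 (bleomycin genotype ratio), from -0.19 to 0.06 (PBS genotype ratio), from 0.09 to -0.18 (WT injury ratio) and from 0.25 to -0.43 (*Hps1*-/- injury ratio). The medians of the 10 genes moved with it, to 2.68, 1.39, 1.05 and 2.26, and the median difference between the genotypes to 1.41, by construction of the scaling, and relative to all genes they were 2.86, 1.33, 1.23 and 2.69 against 2.86, 1.33, 1.22 and 2.65. The share of genes past 2-fold that were higher went from 39.5%, 41.0%, 39.1% and 57.2% to 24.9%, 68.4%, 19.1% and 20.8% with total counts and to 53.4%, 45.5%, 49.6% and 65.9% with the loess correction. That correction gave medians of 2.39 for the bleomycin genotype ratio, 2.32 for the *Hps1*-/- injury ratio and 1.22 for the difference, and left 1469 (2527 without it) and 3846 (6806) of all compared genes past 2-fold in these comparisons. The cause was not tested. Without the filter, 7657, 8710, 8747 and 17659 genes were past 2-fold (2527, 782, 2003 and 6806 with it), since genes of few reads enter. With total counts 5 of the 10 genes were past 2-fold by the WT injury ratio. At a log2 threshold of 2, 0 of the 10 genes were left by the PBS genotype ratio and 1 by the WT injury ratio. Without *Scara5*, *Dpep1* and *Cpxm1*, 3 of 7 were past 2-fold by the WT injury ratio, whose median was 0.99, and the median bleomycin genotype ratio was 3.14, since other genes then make the median. No paired analysis was possible because each group had 1 library. Levels near 1 CPM, as for *Alpl*, rest on 58 to 111 reads outside BLEO-HPS1, which limits their order.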
